A study of Drosophila melanogaster with 6 samples.

Results

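Exon skips spanning 20 kb or more are described here as fortuna counted them in 3 tissues of Drosophila melanogaster pupae. fortuna is a pseudoalignment method that counts reads over splice junctions absent from the gene annotation, and an exon skip is a junction that leaves out at least 1 annotated exon between a donor and an acceptor. A skip entered the set when its last upstream base and its first downstream base lay 20000 bases or more apart. Of 122483 unannotated events, 95954 were exon skips and 11661 of those were long by this rule, in 876 genes or pairs of overlapping genes. RNA was sequenced from w[1118] pupae grown at 27 °C and dissected 72 h after puparium formation (APF), with 2 libraries each of indirect flight muscle (IFM, fibrillar), brain and whole leg. A whole leg holds tubular muscle, epidermis, cuticle and nerve together, so for leg and brain a change in cell content and a change in RNA per cell cannot be told apart. The labels place IFM library preparation with one provider and that of brain and leg with another, whereas the study's methods name a single provider for all tissues. By the labels, provider and tissue cannot be told apart in any comparison with IFM. The labels call the libraries replicates without naming separate animals, while the study's supplement calls them biological duplicates. The p-values here rest on the spread among these 6 libraries, 2 per tissue.

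Splicing of a fly gene joins exons across introns that are mostly short, while neuronal and muscle genes can carry very large introns. A long skip can therefore arise in a pair of ways that the coordinates tell apart: the junction may pass over a single exon beside a very large intron, or over a run of exons that lie close together. The giant sarcomere proteins Projectin, encoded by bent (bt), and Sallimus (sls) are built from repeated immunoglobulin and fibronectin domains encoded by many exons, and their isoforms differ in length between muscle types. Ion channel and synaptic genes of neurons often use several alternative first exons far upstream of the coding exons.

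Each library had between 554656 and 3507067 reads over unannotated events, and the IFM libraries were the deepest with 1798695 and 3507067. Read totals below are sums over both read ends, and comparisons between tissues were made on counts scaled by the trimmed mean of M values (TMM). The labelled tissues carried their markers: the 5 flight muscle markers summed to 248827 CPM (exon reads scaled to library totals) for IFM, 5832 CPM for brain and 64315 CPM for leg, and the 4 counted brain markers to 186, 4762 and 284 CPM. Tubular muscle markers summed to 3394, 742 and 28816 CPM in IFM, brain and leg. Of these 3 markers, 2 were highest in leg, with most of the leg sum from Act79B (25176 CPM). TpnC73F was highest in brain, at 488 CPM against 179 CPM in leg and 30.1 CPM in IFM. Of the 29 cuticle genes listed for leg, 11 had exon counts and 5 of these were highest in leg. All 4 sperm and testis markers were highest in IFM, where they summed to 227 CPM, against 4.54 CPM in brain and 7.86 CPM in leg; none of these genes had a long skip, and their part in the results was not tested.

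Long skips left out more exons than shorter ones. The set is defined by its span, so contrasts in exons left out and start codons inside are not independent of width. A shorter skip cannot hold an intron of 20 kb, and enclosed genes were counted for long skips only. No comparison at equal width was made. Their median span was 33914 bases and the widest spanned 1585228 bases. A median of 6 annotated exons was left out, against 2 for the 84293 shorter skips, and the largest number was 50, against 35 for shorter skips. Of the 11621 long skips whose exons could be counted, 29.3% left out 10 or more, against 4.94% of 83639 shorter skips, while 10.8% passed over a single exon, against 31.8%. An annotated intron of 20 kb or more lay inside 48.0% of the long skips. The donor was that of a first exon in 44.9% of long skips and in 34.3% of shorter ones, and an annotated start codon lay inside 45.3% and 19.9%. Both splice sites were annotated in 98.3% of long skips, so nearly all joined known exon ends in a new combination, and 21 matched an intron that the annotation used here (BDGP6.54) now lists. Another gene lay wholly inside 53.3% of them.

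**Figure D1:**
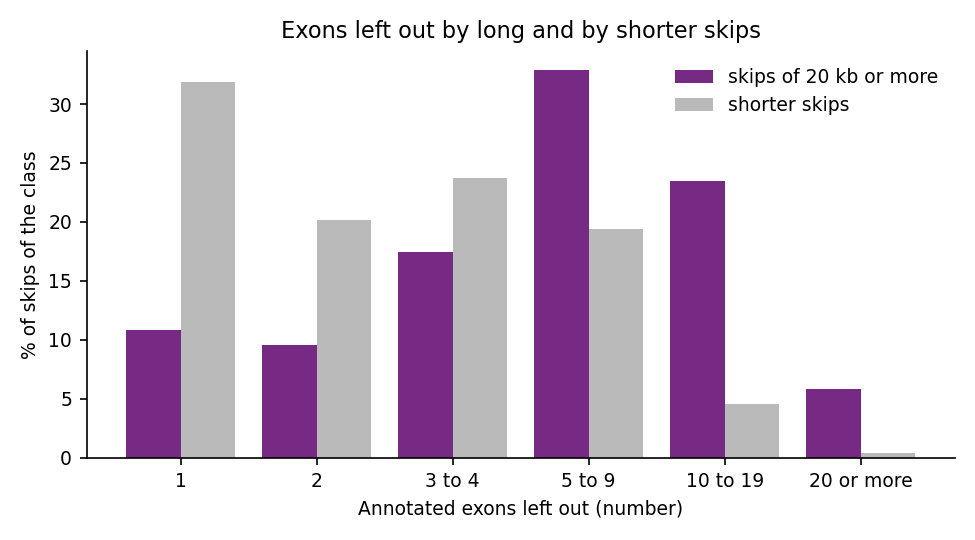
Percentage of exon skips (y axis) by the number of annotated exons left out (x axis), for 11621 skips of 20 kb or more (purple) and 83639 shorter skips (grey). Long skips fell most often in the class of 5 to 9 exons (32.9%), while 1 exon was the most frequent class among shorter skips (31.8%, against 10.8% of long skips).

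Long skips were mostly rare. They had a median of 5 reads over the 6 libraries, against 7 for shorter skips, and 51.7% had 5 or fewer reads, against 44.7%. A single read supported 21.4% of long skips, and 1328 reached 50 reads. Where both ends lay in coding sequence, the coding bases left out were a multiple of 3 in 40.3% of 5593 long skips and in 37.7% of 60708 shorter skips. Among those with at least 50 reads the percentages were 39.4% of 578 long and 39.8% of 9580 shorter skips. No member was excluded for low reads from the counts and shares given above, and the tests below cover the 1328 with 50 reads or more.

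By width, 4649 long skips spanned 20 to 30 kb, 4089 spanned 30 to 50 kb, 2245 spanned 50 to 100 kb, 567 spanned 100 to 200 kb and 111 in 12 genes spanned 200 kb or more. The class of 30 to 50 kb took 49.5% of the IFM long-skip reads, 33.5% of the brain ones and 34.5% of the leg ones. The class of 50 to 100 kb took 9.56%, 20.4% and 14.3%. No skip of 200 kb or more reached 150 reads in a tissue. The widest skip with at least 50 reads spanned 394779 bases of CG17684 on chromosome arm 2R (1867050 to 2261829), and it had 2 and 2 IFM reads, 53 and 42 brain reads and 2 and 0 leg reads. A skip of 218890 bases in bru3, which encodes an RNA-binding protein of the Bruno family, had 2 and 0 reads from IFM, 85 and 49 from brain and none from leg. Those wide skips were read mainly in brain, whereas a skip of 214801 bases in l(3)80Fg had 9 and 2 reads for IFM, 13 and 23 for brain and 3 and 26 for leg. Just inside the limit of 20 kb, a Tm1 skip of 20021 bases had 48 and 80 IFM reads, 5 and 2 brain reads and 6 and 5 leg reads. Just outside it, a slo skip of 19976 bases had 8 and 21 reads from IFM, 87 and 38 from brain and 1 and 2 from leg.

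The tissues differed in how much of their unannotated splicing was long. Long skips took 4.16% and 4.52% of the event reads in the IFM libraries, 9.60% and 8.46% in the brain libraries, and 6.96% and 6.11% in the leg libraries. Wilson 95% intervals, which cover counting error only, ran from 4.13% to 4.19% for IFM replicate 1 and from 9.54% to 9.67% for brain replicate 1. The means were 4.34 ± 0.257% in IFM, 9.03 ± 0.813% in brain and 6.54 ± 0.597% in leg (SD, n = 2 each), and the tissues did not overlap. The difference was -2.20 percentage points for IFM minus leg, -4.69 for IFM minus brain and 2.49 for brain minus leg. The exact two-sided permutation test gave p = 0.333 for each pair, and 0.33 is the smallest value that 2 libraries against 2 allow.

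The kind of long skip also differed. Skips that hold an annotated intron of 20 kb or more took 27.4% and 21.9% of long-skip reads in the IFM libraries, 53.8% and 54.6% in those of brain, and 33.2% and 31.6% in those of leg. Skips of 10 or more exons took 45.7% and 48.8% for IFM, 25.3% and 23.4% for brain, and 28.8% and 26.3% for leg. IFM was above brain and leg in the share over 10 or more exons, and brain was above IFM and leg in the share over large introns, with no overlap in either measure (exact permutation p = 0.333 each). Long-skip reads were concentrated in few genes in IFM, where bt, sls, Scp1, Msp300, Doa and Tm1 together took 51.1%. The 10 genes with most reads took 19.7% in brain and 42.7% in leg. The shares over large introns and over 10 or more exons were not recomputed without these genes.

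**Figure D2:**
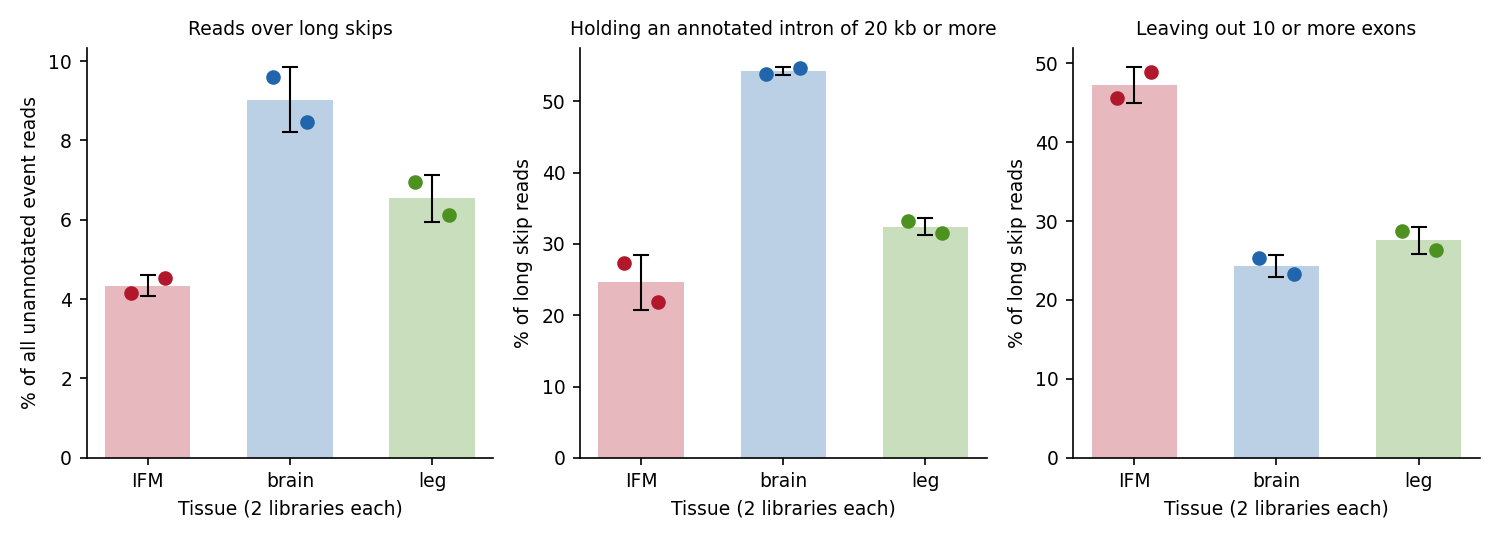
Percentage of unannotated event reads over long skips (left), and percentage of long-skip reads over skips that hold an annotated intron of 20 kb or more (middle) or leave out 10 or more exons (right), in IFM, brain and leg. Points are single libraries, bars the mean and error bars the SD of 2 libraries; brain had the highest share of long skips (9.03%) and IFM the highest share over 10 or more exons (45.7% and 48.8%).

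At 150 reads per tissue, the level the study takes as a stand-in for 1 RPM, 209 long skips of 59 genes passed in IFM, 147 of 90 genes in brain and 77 of 42 genes in leg. These held 67.9%, 36.4% and 44.9% of the long-skip reads of IFM, brain and leg. Of the 372 that passed anywhere, 166 (44.6%) passed in IFM alone, 122 (32.8%) in brain alone and 29 (7.80%) in leg alone, and 6 (1.61%) passed in all 3 tissues. Among 4028 shorter skips that passed, 57.2% did so in IFM alone, 20.4% in brain alone, 4.79% in leg alone and 5.29% in all 3. The order of tissues depends on the deeper IFM libraries: with the level scaled to each tissue's event reads, 98 long skips passed for IFM, 304 for brain and 174 for leg. Some skips were read in 1 tissue and at 0 elsewhere. Of the 209 IFM skips, 16 (7.66%) had no read in brain or leg, against 147 of 2941 shorter IFM skips (5.00%), and 1 of the 147 brain skips and 0 of the 77 leg skips had none in both other tissues.

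For tests between tissues, edgeR's quasi-likelihood test was fitted to all 16595 events with at least 50 reads, with Benjamini-Hochberg adjustment over all of them, and 1328 of these were long skips. Between IFM and leg, 543 long skips differed (40.9%, beside 42.7% of all events), of which 258 were higher in IFM and 285 lower, or 19.4% and 21.5% of those tested, beside 24.7% and 18% of all events. Between IFM and brain, 954 differed (71.8%, beside 63.5%), of which 395 were higher in IFM and 559 lower, or 29.7% and 42.1%, beside 33.3% and 30.2% of all events. Between brain and leg, 598 differed (45%, beside 34.8%), of which 357 were higher in brain and 241 lower, or 26.9% and 18.1%, beside 18.4% and 16.4%. With all 6 libraries, the long skips stood below the background share for calls higher in IFM and above it for calls higher in brain. Leaving out brain replicate 1 lowered the share called higher in brain, both of long skips and of all events. Long skips still stood above all events for calls higher in brain in both comparisons. For calls higher in IFM than in brain they no longer stood below. Leaving out other libraries also lowered single directions by over 1.5 times. This held for calls higher in IFM without IFM replicate 2 and for calls lower in IFM than in leg without either IFM library. It also held for calls lower in brain than in leg without brain replicate 2. Fewer events were tested in these fits, and the shares of all events called fell there as well. The pairs share libraries, so the counts of the pairs are not independent. Scaling to total event reads alone moved the split: 192 higher in IFM and 419 lower against leg, 291 and 677 against brain, and 396 higher in brain and 197 lower against leg. The median of all tested events, with an event absent from a tissue set at 3 reads there, lay at 0.46 (IFM against leg), 0.52 (IFM against brain) and -0.03 (brain against leg) on the log2 scale. The median of the long skips lay at -0.07, -0.60 and 0.38.

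A skip can differ because its gene is expressed at another level. To set this apart, the test was repeated with the summed exon counts of the gene as an offset, for 1128 long skips of 14785 events in single genes with exon counts. With the offset, 267 long skips differed between IFM and leg (23.7%, beside 23.2% of all events), 141 higher in IFM and 126 lower (12.5% and 11.2%, beside 13.4% and 9.79% of all events). Between IFM and brain 303 differed (26.9%, beside 24.3%), 139 higher in IFM and 164 lower (12.3% and 14.5%, beside 11.6% and 12.7%). Between brain and leg 36 differed (3.19%, beside 2.33%), 18 higher in brain and 18 lower (1.6% each, beside 1.53% and 0.798%). The shares of long skips then stood close to those of all events in the comparisons with IFM. Of 469 long skips called between IFM and leg and tested in both ways, 223 were called again, as were 280 of 815 between IFM and brain, 11 of them in the opposite direction, and 30 of 505 between brain and leg. This overlap was not counted for all events. Their called shares also fell with the offset, from 42.7% to 23.2%, 63.5% to 24.3% and 34.8% to 2.33% in that order. The brain and leg calls relative to the gene were lost when 1 library was left out: none remained without either brain library or without leg replicate 1, and 9 were called without leg replicate 2. With all 6 libraries, 224 of 1128 long skips (19.9%) had an unadjusted edgeR p under 0.05 between brain and leg relative to the gene. The share of all events at that level was not taken.

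**Figure D3:**
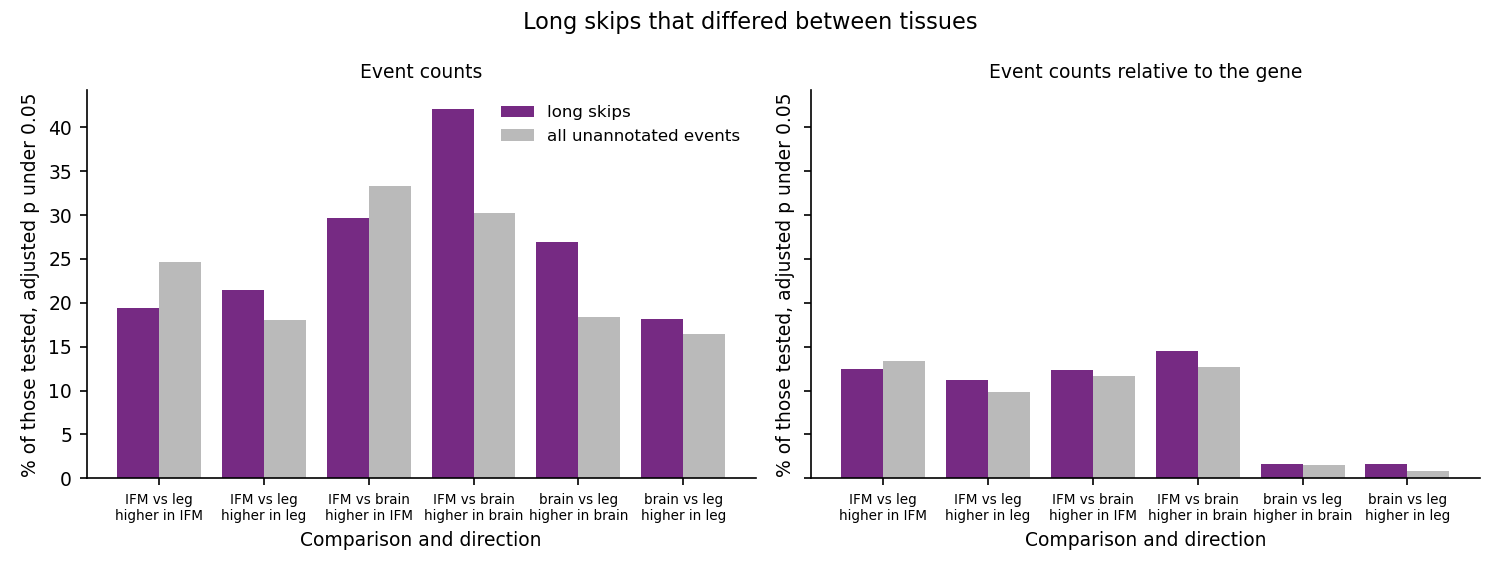
Percentage of tested events (y axis) with an adjusted p under 0.05 in edgeR for each pair of tissues and direction, for long skips (purple) and all unannotated events (grey), on event counts (left) and relative to the exon counts of the gene (right). On event counts 42.1% of long skips were higher in brain than in IFM, beside 30.2% of all events; relative to the gene the percentages were 14.5% and 12.7%.

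Sarcomere genes were the list with the largest share of long-skip reads in IFM and in leg. Of 35 genes on the sarcomere list, 11 had long skips, 849 in all, and these took 45.7% of IFM long-skip reads, 2.18% of the brain ones and 20.5% of the leg ones. Of 172 tested, 68 were higher in IFM than in leg and 21 lower, 137 were higher in IFM than in brain and 9 lower, and 0 were higher in brain than in leg and 100 lower. The shares of all events were 24.7% and 18%, 33.3% and 30.2%, and 18.4% and 16.4% in the same order. The medians of the list were 1.53, 4.30 and -3.17 on the log2 scale, beside 0.46, 0.52 and -0.03 for all events. Measured against the gene, 33 of 138 were higher in IFM than in leg and 26 lower, and 27 were higher in IFM than in brain and 22 lower, beside 13.4% and 9.79%, and 11.6% and 12.7%, of all events. In IFM the list was thus split in both directions once the expression of the gene was taken into account.

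bt on chromosome 4 (724400 to 776474) encodes Projectin, the elastic filament that links the thick filament to the Z-disc in flight muscle. It had 197 long skips with 13205 and 32689 reads for IFM, 689 and 278 for brain and 3432 and 2217 for leg. The most read in IFM ran from 736187 to 774915 and left out 24 exons, with 1766 and 4230 IFM reads, 36 and 8 brain reads and 124 and 80 leg reads. It was higher in IFM than in leg (log2 fold change 3.31 ± 0.57 SE, edgeR adjusted p = 0.00172) and than in brain (6.04 ± 0.65, adjusted p = 8e-05). Relative to the gene it remained higher in IFM than in leg (2.23 ± 0.54, adjusted p = 0.0191), but this call was lost without either leg library (adjusted p up to 0.118). The donor at 736187 was shared by 11 long skips, which had 22888 IFM reads, 188 brain reads and 973 leg reads. A wider skip from 726683 to 774017 left out 34 exons, with 1326 and 3485 reads from IFM, 84 and 21 from brain and 320 and 179 from leg. Between IFM and leg it was not past the threshold relative to the gene (0.61 ± 0.54, adjusted p = 0.426). Of 55 bt skips tested, 24 were higher in IFM than in leg and 8 lower, beside 24.7% and 18% of all events. Relative to the gene 16 were higher and 10 lower, beside 13.4% and 9.79% of all events. Exon reads inside the first of these skips were 82.7% to 84.0% of all bt exon reads for IFM, 84.0% to 84.8% for brain and 84.5% to 85.3% for leg, so most bt reads of every tissue still came from the exons that it leaves out.

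sls on chromosome arm 3L (2039681 to 2115611) encodes Sallimus, the titin-like protein of the I-band that includes the kettin isoform. Its 211 long skips had 9306 and 22684 reads for IFM, 279 and 123 for brain and 2253 and 2248 for leg. The skip from 2040572 to 2076383 left out 14 exons in frame and was the most read long skip of bt and sls, with 2920 and 8370 IFM reads, 8 and 2 brain reads and 206 and 132 leg reads. It was higher in IFM than in leg (3.47 ± 0.50, edgeR adjusted p = 0.000709), also relative to the gene (2.58 ± 0.48, adjusted p = 0.00605), a call lost without leg replicate 2 (adjusted p = 0.0637). Exons inside it held 34.3% to 39.1% of sls exon reads for IFM, 50.6% to 54.8% for brain and 39.5% to 49.9% for leg. The IFM share was the lowest and did not overlap that of brain or leg. The skip from 2041078 to 2093761 left out 18 exons in frame and ran the other way, with 12 and 17 reads from IFM, 92 and 43 from brain and 392 and 426 from leg. It was lower in IFM than in leg on counts (-6.30 ± 0.53, adjusted p = 6.07e-05) and relative to the gene (-7.18 ± 0.55, adjusted p = 8.68e-05). The skip from 2051996 to 2076630 had 8 and 36 reads for IFM, 0 and 1 for brain and 132 and 200 for leg, and was also lower in IFM than in leg relative to the gene (-5.42 ± 0.68, adjusted p = 0.000851). A skip from 2042015 to 2094573 was read in both muscles, with 775 and 1631 IFM reads, 82 and 49 brain reads and 608 and 614 leg reads.

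**Figure D4:**
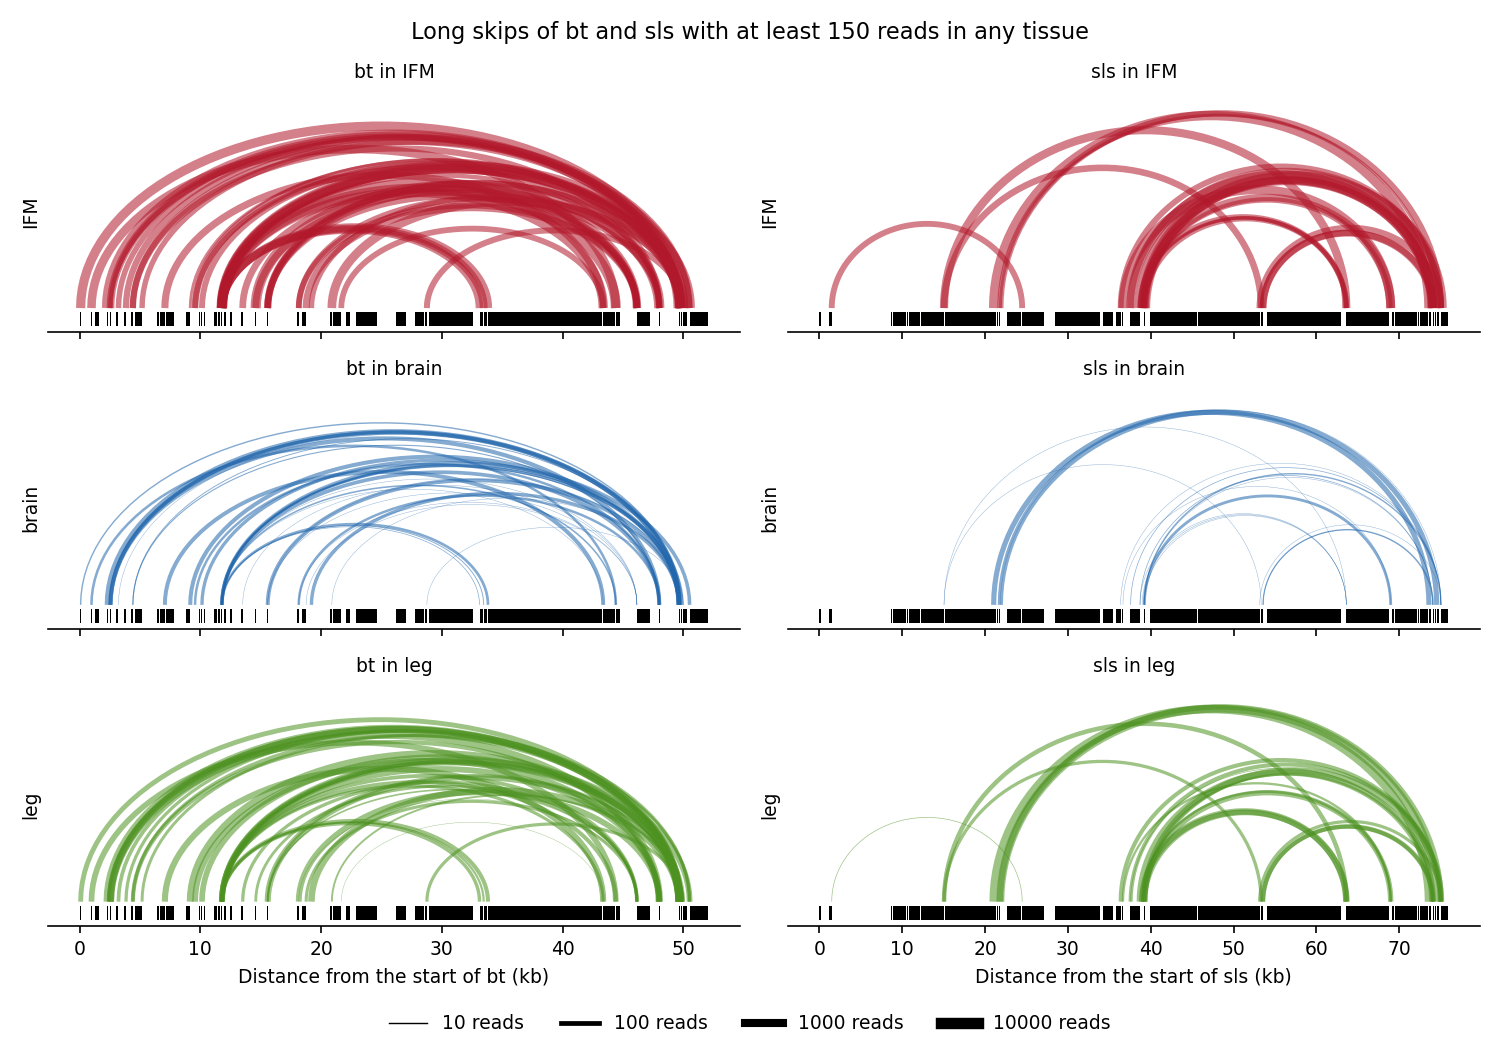
Long skips of bt (left) and sls (right) with at least 150 reads in any tissue, drawn as arcs over the annotated exons (black) against the distance from the start of the gene in kb, for IFM, brain and leg from top to bottom. Line width grows with the log10 of the reads in the tissue; the bt arcs that end at a shared acceptor start at different donors in IFM (738988, with 1156 and 3273 reads) and in leg (726962, with 359 and 243 reads).

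Scp1 (2R, 2932595 to 2968052), a sarcoplasmic calcium-binding protein of muscle, led the leg. It had 11 long skips, with 2849 and 13468 reads from IFM, 197 and 69 from brain and 6033 and 6663 from leg, which was 17.3% of leg long-skip reads. The skip from 2933284 to 2954997 passed over 1 exon in frame and had 1167 and 10953 reads for IFM, 168 and 54 for brain and 4575 and 5106 for leg. The IFM libraries were far apart, and the difference between IFM and leg was not past the threshold (-1.41 ± 0.69, edgeR adjusted p = 0.123). Brain was lower than leg (-5.98 ± 0.85, adjusted p = 0.00104), with Scp1 exon reads at 185 CPM in brain and 22822 CPM in leg. A skip that shares its start and passes over 3 exons, to 2967095, had 1154 and 1547 IFM reads, 10 and 4 brain reads and 463 and 519 leg reads. Set against the gene this skip was higher in IFM than in leg (1.61 ± 0.39, adjusted p = 0.0193), a call lost without either leg library (adjusted p up to 0.122).

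Tm1 (3R, 15278220 to 15308779) encodes a tropomyosin, which lies along the actin filament. A skip from the donor of a first exon at 15281603 to 15303153 left out 7 exons, with 2256 and 4112 reads from IFM, 23 and 16 from brain and 42 and 91 from leg. It was higher in IFM than in leg (4.03 ± 0.48, edgeR adjusted p = 0.000286) and by 3.57 ± 0.47 relative to the gene (adjusted p = 0.00109). Msp300, a giant spectrin-repeat protein that anchors muscle nuclei, had 196 long skips. Its most read, from 5122249 to 5148731 on 2L, had 566 and 1521 reads for IFM, 20 and 13 for brain and 124 and 166 for leg, and was higher in IFM than in brain (4.88 ± 0.50, adjusted p = 6.32e-05). Its difference between IFM and leg (1.25 ± 0.42, adjusted p = 0.0373) was lost without IFM replicate 2, without either leg library, with read end 2 only and under total-read scaling (adjusted p up to 0.846). Of 29 Msp300 skips tested, 15 were higher in IFM than in leg and 0 lower, beside 24.7% and 18% of all events.

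RyR, the ryanodine receptor that releases calcium from the sarcoplasmic reticulum, had a pair of skips from the donor of its first exon at 8860430 that were read in IFM alone. The one from 8860430 to 8884215 on 2R left out 22 exons, with 260 and 817 reads in IFM and 0 in each brain and leg library, so it was at least 213-fold higher in IFM than in brain and at least 137-fold higher than in leg when 3 reads over a tissue are taken as the floor. RyR exon reads were nonetheless present at 223 CPM in brain and 3307 CPM in leg, against 7166 CPM in IFM. Another RyR skip, from 8863010 to 8884871, had 116 and 319 IFM reads, 4 and 4 brain reads and 33 and 27 leg reads. For that one the difference between IFM and leg was not past the threshold (1.26 ± 0.49, edgeR adjusted p = 0.0599). The overlapping genes Pif1A and Pif1B, whose reads cannot be told apart here, had a skip from 8775114 to 8800875 on 3R with 497 and 1004 reads in IFM and none in brain or leg, at least 297-fold higher than in brain and at least 191-fold higher than in leg.

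On the list of developmental transcription regulators, 37 skips were tested: 15 were higher in IFM than in leg and 2 lower (beside 24.7% and 18% of all events), and 18 were higher in IFM than in brain and 3 lower (beside 33.3% and 30.2%). With the offset, 8 and 1 of 34 were called against leg (beside 13.4% and 9.79% of all events) and 6 and 2 against brain (beside 11.6% and 12.7%). Most of its IFM reads belonged to Doa, which encodes a LAMMER kinase that phosphorylates splicing factors and is not itself a transcription factor. Its 43 long skips had 2739 and 5994 reads from IFM, 89 and 82 from brain and 173 and 182 from leg. The Doa skip from 28889884 to 28921341 on 3R left out 9 exons in frame, with 346 and 793 reads for IFM, 2 and 0 for brain and 6 and 3 for leg. It was higher in IFM than in leg (5.40 ± 0.67, edgeR adjusted p = 0.000328), also relative to the gene (3.38 ± 0.65, adjusted p = 0.00698), a call lost without leg replicate 2 (adjusted p = 0.0511). hth encodes a homeodomain protein that, with its partner Exd, specifies fibrillar flight muscle. The hth skip from 10514344 to 10548652 on 3R had 125 and 136 reads in IFM and none in brain or leg. bru1 encodes a Bruno family RNA-binding protein that directs flight muscle splicing. Its skip from 12206130 to 12278837 on 2L passed over 1 exon beside an intron of 65460 bases, with 185 and 331 IFM reads, 2 and 0 brain reads and 2 and 1 leg reads. On the list of RNA-binding and splicing regulators, 27 of 65 tested were higher in IFM than in leg and 7 lower, and 31 were higher in IFM than in brain and 14 lower, beside the same shares of all events. With the offset, 8 were higher in IFM than in leg and 3 lower, beside 13.4% and 9.79% of all events. Against brain, 10 were higher in IFM and 3 lower, beside 11.6% and 12.7%.

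Several genes used alternative long skips in IFM and in the other tissues. This pattern was chosen after the values were seen: 2 skips share an end, one has at least 50 reads in one tissue and 0 in the other, and its partner is the reverse. It occurred in 4 pairs of long skips between IFM and leg, 5 between IFM and brain and 0 between brain and leg, and in 33, 39 and 0 pairs of shorter skips. Long skips that could form a pair, with 50 reads in one tissue and 0 in the other, were unequal in number. There were 75 for IFM and 12 for leg in the first comparison, and 91 for IFM and 72 for brain in the second. Between brain and leg there were 78 for brain and only 2 for leg, so few pairs were possible there. Shorter skips had 341 for brain and 35 for leg. The comparisons with such pairs are those that involve IFM, and by the labels also those between library providers. Provider cannot be told apart from tissue, and the cause was not tested. In bt the acceptor at 772403 was joined from 738988 with 1156 and 3273 reads in IFM and none in brain or leg, so IFM was at least 877-fold higher than brain and at least 563-fold higher than leg. The same acceptor was joined from 726962 with no reads from IFM, 43 and 24 from brain and 359 and 243 from leg, so IFM was at least 526-fold lower than leg. In all, 24 long skips joined this acceptor. Those from 728814, 733964, 736187 and 742550 were read in IFM, brain and leg, and that from 739981 in IFM alone. In slo, the donor at 24674881 was joined to 24696091 with 276 and 476 reads in IFM and none in brain or leg. It was joined to 24700706 with no reads for IFM, 177 and 81 for brain and 33 and 13 for leg. These values describe skips chosen for this pattern, so no test is given for them. CG31145, DIP-epsilon and Sdc held the other pairs, with the brain and leg reads on one side and the IFM reads on the other. CG31145 lies on the minus strand of 3R, so its shared position 23653739 is a donor. This donor was joined to 23608481 with 52 and 69 reads in IFM and none in brain or leg. It was joined to 23608799 with no IFM reads, 101 and 65 brain reads and 120 and 95 leg reads.

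In brain, long-skip reads were spread over many genes. The lists with the largest shares were axon guidance and recognition (9.78%), ion channels, receptors and pumps (9.36%), cytoskeleton and adhesion (7.63%) and synaptic release (7.45%). The gene with most reads, CG42613 (3R, 18929196 to 18978088), took 4.25% of brain long-skip reads. Its skip from 18937640 to 18971784 left out 9 exons and had no reads from IFM, 1310 and 1198 from brain and 5 and 23 from leg. Brain was higher than leg by 5.97 ± 0.69 on the log2 scale (edgeR adjusted p = 0.000663), and IFM was at least 1407-fold lower than brain. It was not tested relative to its gene.

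Ion channels, receptors and pumps had 26 of 51 listed genes with long skips, with 7295 IFM reads, 11955 brain reads and 1774 leg reads. Of 72 tested, 8 were higher in IFM than in leg and 10 lower, 11 were higher in IFM than in brain and 45 lower, and 39 were higher in brain than in leg and 2 lower. All events had shares of 24.7% and 18%, 33.3% and 30.2%, and 18.4% and 16.4%, so fewer of these skips than of all events were called between IFM and leg. The medians were 0.17, -2.71 and 2.49 on the log2 scale. With the gene's exon reads as offset, 9 were higher in IFM than in brain and 12 lower (beside 11.6% and 12.7% of all events). Shab encodes a voltage-gated potassium channel of delayed rectifier type. Its skip from the first exon at 2895182 to 2940781 on 3L left out 3 exons, with 43 and 96 reads for IFM, 901 and 486 for brain and 98 and 61 for leg. IFM was lower than brain (-4.36 ± 0.48, edgeR adjusted p = 8.42e-05) and brain higher than leg (2.62 ± 0.44, adjusted p = 0.00226), but relative to the gene brain and leg did not differ past the threshold (0.72 ± 0.43, adjusted p = 0.429). slo, the calcium-activated potassium channel, had 99 long skips with 1156 and 1989 IFM reads, 2495 and 1329 brain reads and 457 and 350 leg reads. Of 27 tested, 4 were higher in IFM than in brain and 11 lower, beside 33.3% and 30.2% of all events. Sh, the Shaker potassium channel, had a skip of 109747 bases with 11 and 16 reads from IFM, none from brain and 72 and 15 from leg. Brain was at least 45.2-fold lower than leg.

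Skips of synaptic release genes were mostly called towards brain on event counts. Of 54 tested skips on that list, 2 were higher in IFM than in leg and 13 lower, 3 were higher in IFM than in brain and 46 lower, and 39 were higher in brain than in leg and 1 lower, beside 24.7% and 18%, 33.3% and 30.2%, and 18.4% and 16.4% of all events. The medians were -1.08, -4.79 and 3.26 on the log2 scale. Relative to the gene, of 51 tested, 4 were higher in IFM than in brain and 5 lower, beside 11.6% and 12.7% of all events. unc-13, which primes synaptic vesicles, had a skip from 878992 to 907620 on chromosome 4 with 48 and 72 reads for IFM, 457 and 177 for brain and 123 and 100 for leg, lower in IFM than in brain (-3.37 ± 0.50, edgeR adjusted p = 0.00038). Another unc-13 skip, from 883081 to 912187, had 70 and 89 IFM reads, 6 and 5 brain reads and 3 and 3 leg reads, and was higher in IFM than in brain (2.84 ± 0.64, adjusted p = 0.00361). The pair moved in opposite directions within a gene whose exon reads were 138 CPM for IFM, 1318 CPM for brain and 228 CPM for leg. Cadps, which acts in dense-core vesicle release, had a skip of 15 exons from 1232190 to 1254006 with no reads from IFM, 211 and 154 from brain and 7 and 4 from leg. Sap47, a synapse-associated protein, had a skip from 15935912 to 15959320 on 3R with 7 and 8 reads for IFM, 406 and 318 for brain and 14 and 16 for leg. sif, a Rac exchange factor at synapses, had a skip of 59446 bases and 19 exons with 5 and 8 IFM reads, 678 and 370 brain reads and 4 and 0 leg reads.

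Snap25, the SNARE protein of the plasma membrane, lies across 24074180 to 24299205 on 3L and showed both kinds of behaviour. Its skip from 24074310 to 24131196 had 7 and 9 reads from IFM, 131 and 131 from brain and 5 and 2 from leg, higher in brain than in leg (4.72 ± 0.62, edgeR adjusted p = 0.000783). The next skip, from 24131237 to 24253793, spanned 122556 bases, with 68 and 85 reads for IFM, 89 and 51 for brain and 112 and 49 for leg. IFM and brain did not differ past the threshold on counts (-0.84 ± 0.51, adjusted p = 0.172), while exon reads of the gene were 23.8 CPM in IFM and 665 CPM in brain. Against its gene's exon reads it was therefore higher in IFM than in brain (3.97 ± 0.56, adjusted p = 0.00159).

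Recognition molecules had many rare skips. Of 91 tested from guidance and recognition genes of neurons, 11 were higher in IFM than in brain and 73 lower (beside 33.3% and 30.2% of all events), and 52 were higher in brain than in leg and 2 lower (beside 18.4% and 16.4%). The medians were -4.45 and 3.15 on the log2 scale. With the offset the list was no longer one-sided: of 77 tested, 11 were higher in IFM than in brain and 9 lower, beside 11.6% and 12.7% of all events. Dscam1, whose exons are arranged in large clusters of alternatives, had 199 long skips, of which 12 had 50 reads. Its acceptor at 7329851 on 2R was the most shared splice site, joined by 52 long skips with 61 IFM reads, 527 brain reads and 65 leg reads. The Dscam1 skip from 7321649 to 7377534 left out 20 exons, with 5 and 9 IFM reads, 144 and 74 brain reads and 23 and 15 leg reads. It was lower in IFM than in brain (-4.93 ± 0.60, edgeR adjusted p = 0.00014), though not past the threshold relative to the gene (-1.67 ± 0.57, adjusted p = 0.0572). Nrg, the L1-type adhesion molecule neuroglian, went the other way, with a skip from its first exon at 8517634 to 8547978 on X that had 69 and 149 reads in IFM and none in brain or leg. Over all genes, 2551 of 5219 acceptors were joined by 1 long skip, 436 by 5 or more and 12 by 20 or more. dpy, an extracellular matrix protein that anchors cuticle and muscle tendon, had an acceptor joined by 50 long skips.

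In leg, the list of cytoskeleton, adhesion and basement membrane genes took 6.78% of long-skip reads and the cuticle, epidermis and trachea list 0.985%. The skips named for leg outside Scp1, bt and sls lay in genes of several kinds. tmod, which caps the pointed ends of actin filaments, had a skip from the first exon at 30532982 to 30578117 on 3R with 37 and 33 reads from IFM, 23 and 1 from brain and 263 and 263 from leg. IFM was lower than leg (-4.33 ± 0.81, edgeR adjusted p = 0.00265) and brain was lower than leg (-4.99 ± 0.86, adjusted p = 0.00238), while relative to the gene neither passed the threshold (adjusted p = 0.0805 and 0.0719). shot, a spectraplakin that links actin and microtubules, had a skip from 13870911 to 13901437 on 2R with 7 and 10 reads for IFM, 71 and 53 for brain and 192 and 184 for leg. It was lower in IFM than in leg also relative to the gene (-4.74 ± 0.49, adjusted p = 0.000347), while brain against leg was at 0.09 ± 0.40 there (adjusted p = 0.97). nuf, an effector of recycling endosomes, had a skip from 14200807 to 14231597 on 3L with no IFM reads, 158 and 93 brain reads and 203 and 230 leg reads. IFM was at least 379-fold lower than leg. sgg, the fly GSK-3 kinase, had a skip from 2649739 to 2675188 on X with no reads from IFM, 151 and 121 from brain and 275 and 153 from leg. The dpy skip of 21 exons from 4479779 to 4511933 on 2L had 1 and 15 reads for IFM, 0 and 1 for brain and 35 and 47 for leg, and was lower in IFM than in leg (-3.98 ± 0.88, adjusted p = 0.00591), a call lost with read end 1 only (adjusted p = 0.0535).

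On the list of cytoskeleton, adhesion and basement membrane genes, 10 of 88 tested were higher in IFM than in leg and 26 lower, 12 were higher in IFM than in brain and 42 lower, and 24 were higher in brain than in leg and 12 lower. All events stood at 24.7% and 18%, 33.3% and 30.2%, and 18.4% and 16.4%, and the medians of the list were -1.08, -1.23 and -0.23 on the log2 scale. With the offset, 2 of 34 were higher in IFM than in leg and 6 lower, beside 13.4% and 9.79% of all events. Against brain, 1 was higher in IFM and 10 lower, beside 11.6% and 12.7%. On the cuticle, epidermis and trachea list, 3 genes had long skips and all 3 skips tested, each in dpy, were lower in IFM than in leg, beside 18% of all events. With the offset, 1 of the 3 was lower in IFM than in leg, beside 9.79% of all events. That call, for 4479779 to 4525604, was lost in 4 of 8 alternatives. Of 34 skips tested in cyclic nucleotide and kinase signalling, 1 was higher in IFM than in brain and 17 lower (beside 33.3% and 30.2% of all events). With the offset the numbers were 1 and 4 of 34 (beside 11.6% and 12.7%). A Pka-R2 skip of that list, a regulatory subunit of protein kinase A, was read widely in every library, with 289 and 602 IFM reads, 537 and 375 brain reads and 160 and 120 leg reads. Glial and testis markers had no long skip, and the blood cell and fat body markers had 3, none with 50 reads.

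**Figure D5:**
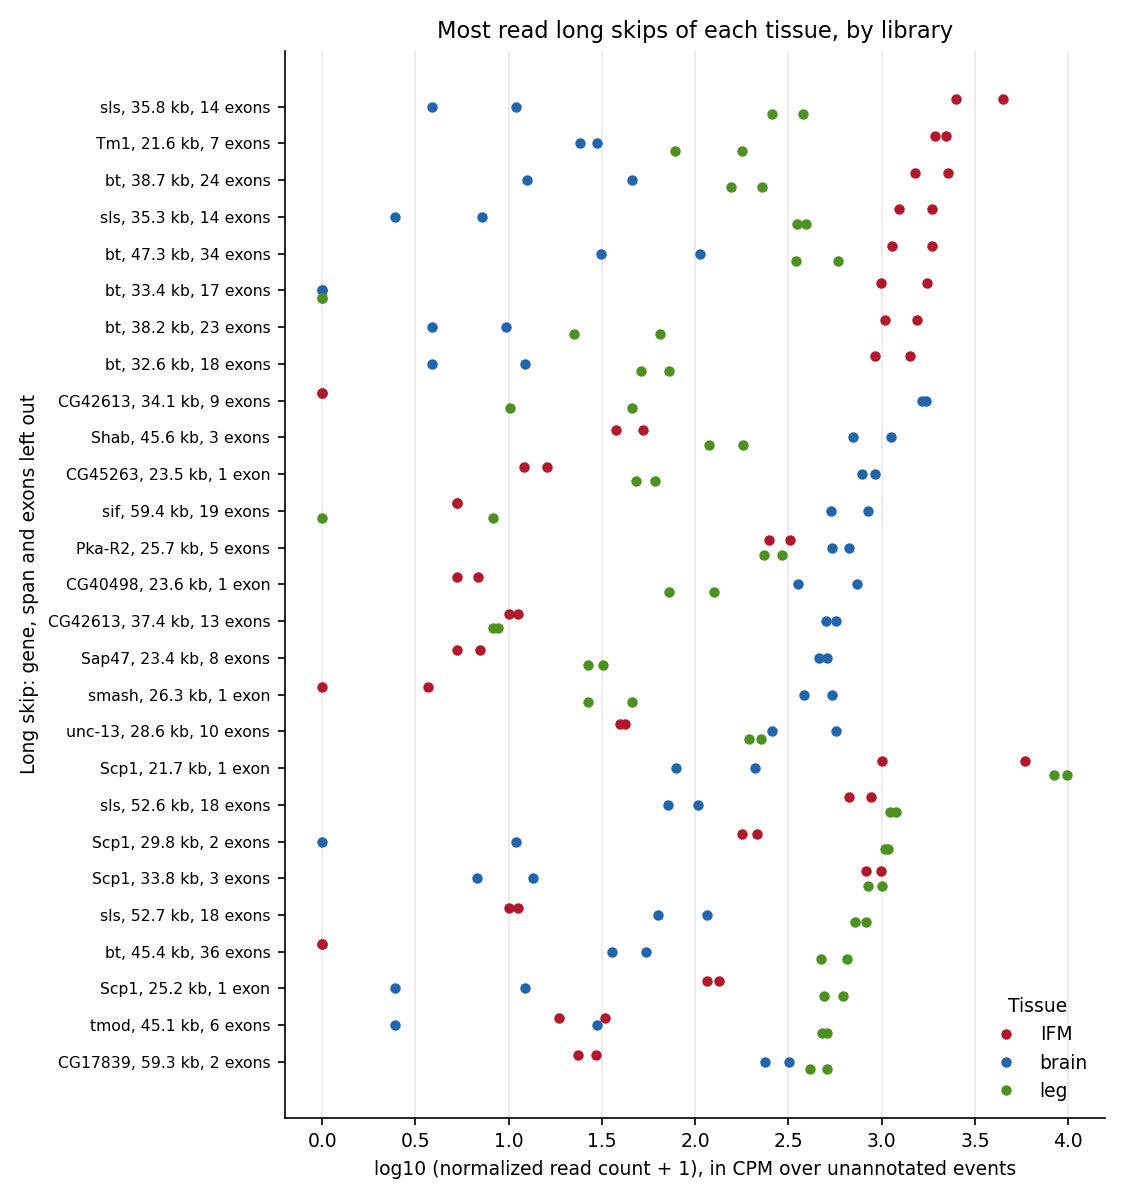
The 10 most read long skips of each tissue, named by gene, span in kb and exons left out, against log10 of the TMM-scaled CPM over unannotated events plus 1, with 1 point per library for IFM, brain and leg. The sls skip of 14 exons (2920 and 8370 reads in IFM, 206 and 132 in leg) and the CG42613 skip of 9 exons (1310 and 1198 reads in brain) stand apart from the other tissues, while the IFM libraries of the Scp1 skip of 1 exon lie far apart (1167 and 10953 reads).

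Few genes had long skips called in both directions between brain and leg. Of 250 genes with a call in that comparison, 171 had only skips higher in brain, 74 only skips lower in brain and 5 had both, namely CG33181, how, l(3)80Fg, mtd and smash. Between IFM and leg, 54 of 214 genes had only skips higher in IFM, 135 only lower and 25 both. Between IFM and brain the numbers were 62, 236 and 30 of 328. A gene with a lone called skip cannot show both directions, and genes with several called skips were not counted apart. Genes were not counted in this way for shorter skips or for all events. Whether long skips differ from them in direction within genes was therefore not tested. bt, sls, slo, Tm1, Nrg and unc-13 were among the genes with both directions in each comparison with IFM. Whether a read over one junction of the repeated exons of bt, sls, Dscam1 or dpy could also match another pair of exons was not tested.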

How the data were processed

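Poly(A) RNA of IFM, brain and whole leg was sequenced in 6 libraries, 2 per tissue. Per the study's methods, the authors applied fortuna to both ends of a read pair separately. It guesses introns by joining annotated splice sites, adds sites found by a spliced aligner, builds transcript fragments, pseudoaligns reads to them and derives counts from the reads over introns outside the annotation (BDGP6). The deposited event tables, 12 in all, hold these raw counts per event, not normalized and with replicates and read ends apart. The 3 deposited exon tables, made by the authors with DEXSeq after STAR 2.7.3a alignment, hold raw counts per exon bin and library; the counter of the bins and the DEXSeq version are not given in the sources used here. Their columns carry no replicate number, so only tissue means were used, and 78 lines per table that named no gene bin were left out. A further 3 tables hold the authors' own gene comparisons and were not used.

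Both read ends were summed. Long skips are exon skips whose end minus start is at least 20000 bases. Exons, coding bases and genes came from the Ensembl BDGP6.54 annotation. edgeR 4.0.16 (R 4.3.3) fitted all 6 libraries with TMM scaling to events with at least 50 reads, with a threshold of 0.05 after Benjamini-Hochberg adjustment over all events tested. The locus offset was the log of the mean TMM-scaled CPM of the gene's summed exon bins plus 0.1. Shares were compared by an exact permutation test (scipy 1.17.1). DESeq2 1.42.0 was an alternative, besides other scalings, count minimums of 10 and 1, single read ends, a replicate block and each library left out. Values without bt, sls and Scp1 were chosen after seeing the data. In data simulated for IFM against leg over 16595 events, edgeR recovered 0, 7, 24 and 41 of 50 events changed 2-, 4-, 8- and 16-fold, and called 5 of 16395 unchanged events. The changed events were drawn from those above the median normalized count. They were far fewer than the 7087 events called between IFM and leg, so these rates cannot be carried over to the data. Median absolute log2 differences between replicates of long skips were 0.381 in IFM, 0.612 in brain and 0.669 in leg.

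Genes were named if they held one of the 10 most read long skips of a tissue, of the 5 largest called changes per pair and direction in either fit, of the 5 widest with 50 reads, or of the 2 nearest on each side of the limit, if they were among the 10 genes with most long skips, or if they were among the 3 most read members of a gene list. The members, the 13 gene lists (438 symbols, 11 of them absent from the annotation) and these rules were chosen with earlier results of these data known.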

Additional observations from a re-analysis of the deposited data

How the results depend on the processing

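Same-numbered libraries did not deviate together (r of at most 0.0438 over long skips), so the numbers were not taken as pairs; with the replicate block 523, 911 and 581 long skips were called for IFM against leg, IFM against brain and brain against leg (543, 954 and 598 without it), and 235, 285 and 51 relative to the gene (267, 303 and 36). With at least 10 reads, 1785 were called between IFM and brain and 64 between brain and leg relative to the gene. Other scalings, DESeq2, the 4 libraries of a pair alone, single read ends and 1 CPM added to the locus kept each count within 1.5 times. Leaving out 1 library gave 268 to 555, 621 to 937 and 332 to 543 calls, with the lowest without IFM replicate 2, IFM replicate 2 and brain replicate 1, and 85 to 288, 109 to 352 and 0 to 37 relative to the gene. Calls between IFM and leg fell to 354 without IFM replicate 1, and those between brain and leg to 376 without brain replicate 2. Relative to the gene, IFM against leg gave 100, 85, 105 and 146 without IFM replicate 1, IFM replicate 2, leg replicate 1 and leg replicate 2, and IFM against brain gave 143, 109 and 166 without IFM replicate 1, IFM replicate 2 and brain replicate 1. With read end 1 only, 59.5% of the calls between IFM and leg were higher in IFM, against 47.5% with both ends. The cause of these moves was not tested beyond the smaller number of libraries or events.

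At 750 reads 47, 7 and 5 long skips passed in IFM, brain and leg, at 30 reads 856, 826 and 396, and with the level scaled to event reads 98, 304 and 174. Without bt, sls and Scp1, 49 passed in leg. Leaving out a library gave 147 to 256 in IFM, 114 to 187 in brain and 64 to 84 in leg. The difference in the share of event reads kept its sign under each alternative run, between -2.62 and -1.78 percentage points (IFM minus leg), -5.27 and -4.12 (IFM minus brain) and 1.92 and 3.07 (brain minus leg) when a library was left out. Of 5345 alternative values for 386 results on named skips, 4889 stayed on their side of the threshold, 453 lost the call and 3 changed sign, all with a single read end. A skip of Lar and CG46244 (19702350 to 19729539) had 1.22 between IFM and leg with read end 1, Sap47 (15935912 to 15959320) had 0.084 between IFM and leg with read end 2, and Snap25 (24074310 to 24253793) had 0.36 between IFM and brain with read end 2, none past the threshold. Depth limits the rare members: 51.7% of long skips had 5 or fewer reads, and only 1328 of 11661 reached the 50 reads needed for a test.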

Other observations

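The long skips were spread over the chromosomes, with 2057 on 2L, 2070 on 2R, 2516 on 3L, 2694 on 3R, 1923 on X, 381 on chromosome 4 and 18 on Y. The small chromosome 4, with bt, unc-13 and Cadps, held 58788 of the 434647 long-skip reads. The Y skips had 58 reads in all.

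Further named long skips had most of their reads in brain. smash, a LIM domain protein, had a skip of 1 exon from 4670850 to 4697191 on 3R with 0 and 5 reads from IFM, 433 and 263 from brain and 14 and 23 from leg. Relative to the gene it was higher in brain than in leg (log2 fold change 3.55 ± 0.64 SE, edgeR adjusted p = 0.0257), a call lost without any of the 4 brain and leg libraries (adjusted p up to 0.155). CG45263 had a skip of 1 exon with 13 and 28 reads for IFM, 733 and 544 for brain and 26 and 31 for leg. A skip of nolo from 21684339 to 21710564 on 2L had 5 and 4 IFM reads, 238 and 154 brain reads and no leg reads. eys, which encodes a matrix protein that keeps the rhabdomeres of photoreceptors apart, had a skip from 2312179 to 2350759 on 2L with 1 and 4 reads for IFM, 193 and 137 for brain and 2 and 5 for leg. heph, the fly polypyrimidine tract-binding protein, had a skip from 31864630 to 31935666 on 3R with 8 and 4 IFM reads, 281 and 168 brain reads and 17 and 2 leg reads. It remained lower in IFM than in brain relative to the gene (-4.38 ± 0.83, adjusted p = 0.00605), a call lost without IFM replicate 2 (adjusted p = 0.0517).

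Some long skips were read in every library. The scrib skip of 20 exons from 26536531 to 26589908 on 3R had 59 and 105 reads from IFM, 109 and 124 from brain and 117 and 113 from leg, and its donor was joined to 24 acceptors by long skips. It was lower in IFM than in leg (-2.01 ± 0.42, edgeR adjusted p = 0.00453, lost with read end 1 only and with no count minimum, up to 0.141) and than in brain (-1.56 ± 0.41, adjusted p = 0.00817, lost also without either IFM library, up to 0.278), and neither passed relative to the gene (-0.07 ± 0.41 and -0.20 ± 0.41). scrib encodes a scaffold protein of epithelial polarity. CG17839 had a skip of 59347 bases on 3L with 33 and 42 reads for IFM, 256 and 163 for brain and 278 and 212 for leg, lower in IFM than in leg (-4.18 ± 0.45, adjusted p = 0.000166), and not past the threshold relative to the gene (-0.99 ± 0.41, adjusted p = 0.105). trol, the fly perlecan, had a skip of 22 exons with 34 and 62 IFM reads, 35 and 21 brain reads and 144 and 121 leg reads, lower in IFM than in leg (-2.99 ± 0.46, adjusted p = 0.000989) and lower in brain than in leg (-2.74 ± 0.46, adjusted p = 0.00219).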
